A study of Homo sapiens with 6 samples.

Results

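The 36 genes described here encode integrin subunits, tensins and other proteins of focal adhesions. They were taken from the deposited tables by gene symbol, as 18 integrin subunits and 18 cytoplasmic adaptors, and all 36 were found among 58656 gene rows. Expression was measured by sequencing of polyA RNA from MDA-MB-231 cells, a long-established line of triple-negative human breast carcinoma that lacks oestrogen and progesterone receptors. The control group of 3 libraries received DMSO, the vehicle, for 9 hours, and the treated group of 3 libraries received mitocurcumin, a derivative of curcumin directed to mitochondria, at 5 µM for 9 hours. The libraries are labelled as biological replicates of this 1 line, and nothing further says that they came from separate cultures. The p-values therefore measure the spread between these libraries, which may be technical.

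Integrins are receptors of 1 alpha and 1 beta subunit that bind matrix proteins outside the cell. Inside the cell, talins and kindlins bind the beta subunit's tail and activate the receptor, vinculin, tensins and the complex of ILK, PINCH and parvin link it to actin, and the kinases FAK and SRC signal from the site. In carcinoma cells this machinery is known for its part in attachment, spreading and invasion.

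The libraries held 23146822 to 29104681 estimated counts each, and the 36 genes together took 0.835% to 0.871% of them in the controls and 0.735% to 0.760% after mitocurcumin. Levels are given as CPM, counts scaled to a common library size, after TMM scaling, a correction for library composition. The line's mesenchymal markers were abundant, with VIM at 2163 and 2337 CPM and CD44 at 2095 and 2116 CPM in control and treated cells. Summed luminal markers (8 genes, 3 called lower) lay at 229 to 270.4 CPM in the controls and 201 to 207 CPM after treatment, with KRT19 at 163 CPM, ERBB2 at 41.6 CPM and EPCAM at 22.3 CPM in the controls and the receptors ESR1 and PGR at most 0.348 CPM in every library. Summed leukocyte markers (9 genes, 0 called by edgeR's quasi-likelihood test) lay at 18.2 to 20.7 CPM in the controls and 17.4 to 20.6 CPM after treatment. Of these, LCP1 averaged 12.9 CPM in the controls and 13.3 CPM after treatment, and CD3E was at most 0.0427 CPM. Summed endothelial markers (5 genes, 2 called lower) lay at 17.8 to 19.8 CPM and 9.25 to 11.1 CPM. Of these, PECAM1 averaged 12.9 and 6.42 CPM and KDR 5.29 and 3.56 CPM in control and treated cells. CDH5 and VWF were at most 0.0852 and 0.171 CPM. Summed fibroblast markers (7 genes, 1 called lower) lay at 24.7 to 31.4 CPM and 18.6 to 23.02 CPM. The part of these marker levels in the results was not tested. Control replicate 1 stood apart from the other controls on the second principal component of all tested genes (31.3, against -17.1 and -17.2). In these bulk samples, fewer cells of a type and less RNA per cell cannot be told apart.

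After mitocurcumin, 12 of the 35 genes that could be tested fell and 2 rose, where 17.8% and 14.7% of all 16481 genes tested did so. The genes that fell were the subunits ITGB8, ITGA10, ITGB4, ITGA2, ITGA6, ITGA1 and ITGB1, the tensins TNS4, TNS2 and TNS3, the linker VCL and the docking protein BCAR1. The genes that rose were ITGA5, the alpha subunit of the fibronectin receptor, and ITGA11, a collagen-binding alpha subunit. A call is an adjusted p under 0.05 in the quasi-likelihood test of edgeR, adjusted by Benjamini-Hochberg over all genes tested, and 32.5% of them were called in either direction. The 12 that fell were 34.3% of the tested members and the 2 that rose were 5.71%. The 36th gene, ITGA7, a laminin-binding alpha subunit, held 1 to 10 counts per library, too few to be tested.

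Among the 17 tested integrin subunits 7 fell and 2 rose, and among the 18 adaptors 5 fell and 0 rose. The shares that fell were 41.2% and 27.8%. For rising adaptors, 1 (PXN) had an unadjusted p under 0.05 in edgeR, and DESeq2, limma voom and limma on the deposited log2 values called 0. The median log2 fold change was -0.10 for the subunits and -0.09 for the adaptors, against -0.01 for all genes tested. The subunit median was -0.016 without control replicate 1, -0.18 without control replicate 2, -0.22 without treated replicate 1 and -0.063 without treated replicate 3, and the adaptor median was -0.036 with a filter of 1 CPM in 3 libraries. The median absolute log2 fold change was 0.27 for the subunits, 0.13 for the adaptors and 0.23 for all genes. Most members are well expressed, and among genes with a mean of at least 10 CPM, 25.5% of all 9637 genes fell and 19.3% rose, against 11 and 1 of 29 members. No overlap between the 3 treated and the 3 control libraries was seen in 16 members that were lower and 3 that were higher, where 23.7% and 21.2% of all genes tested behaved so (44.9% in either direction). Called with a change of at least 2-fold were 3 members, ITGB8, TNS4 and ITGA11, where 3.45% of all genes were called with a change of that size. TNS1 also differed by more than 2-fold and was not called. The difference between subunits and adaptors was not tested. Without control replicate 1, 11 members were called lower and 3 higher, the added gene being PXN.

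**Figure D1:**
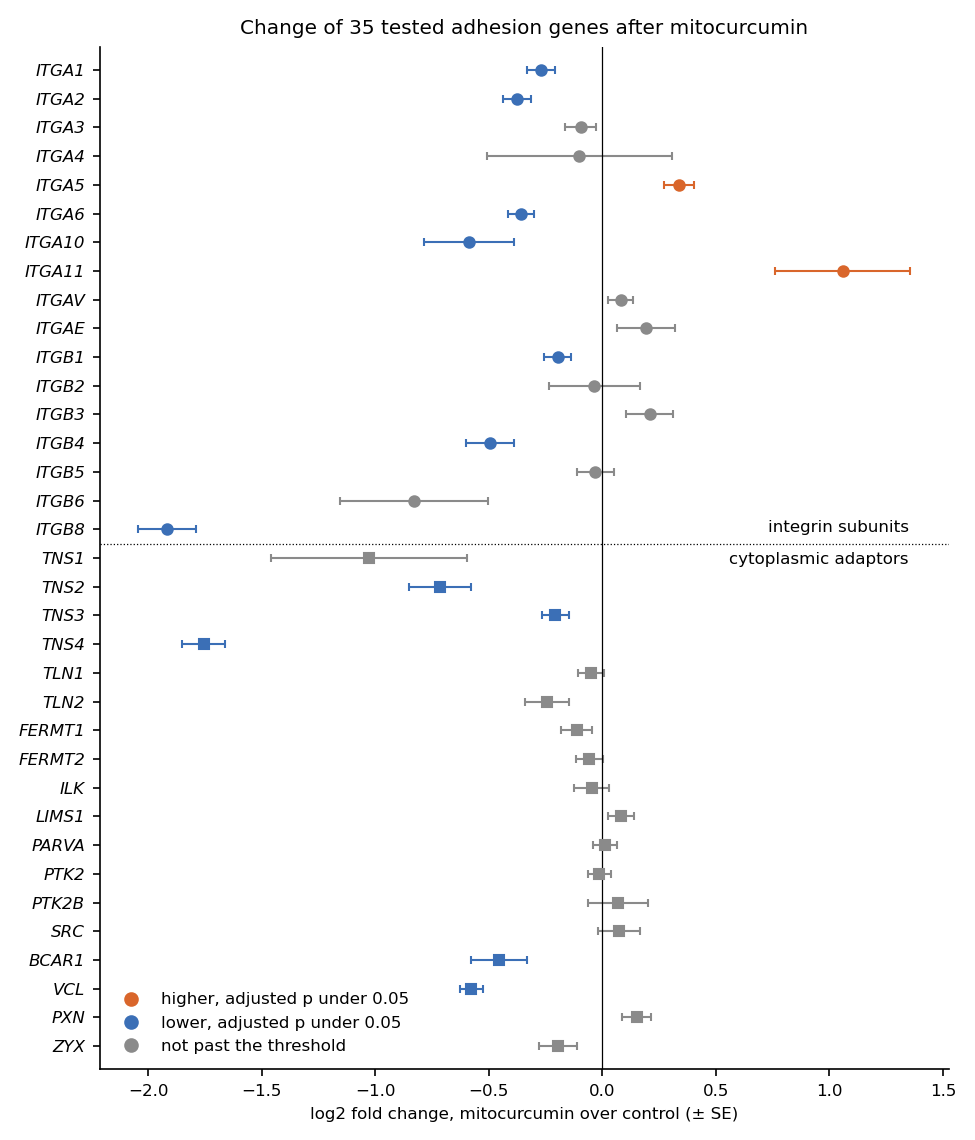
Log2 fold change of the 35 tested genes, mitocurcumin over control, with 1 standard error; circles are integrin subunits, squares are adaptors, and colour gives the call at an adjusted p under 0.05. ITGB8 at -1.92 and TNS4 at -1.75 lie farthest to the left, ITGA11 at 1.06 farthest to the right, and most adaptors sit close to 0.

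Of the 4 collagen-binding alpha subunits, all of which pair with ITGB1, 3 fell and 1 rose. ITGA2 (chr5:52989352-53094779, plus strand) had the highest level of them per kilobase of exon (101 CPM per kilobase in the controls, against 9.76 for ITGA1). It stood at 739, 818 and 827 CPM in control replicates 1, 2 and 3 and at 597, 649.9 and 591 CPM in the treated replicates, so that the groups did not overlap and the means were 22.9% apart (log2 fold change -0.38 ± 0.06 SE, adjusted p = 1.3e-04 by edgeR). ITGA1, its neighbour on chromosome 5, fell from 105 ± 5.75 to 87.1 ± 2.03 CPM (SD, n = 3; -0.27 ± 0.06, edgeR adjusted p = 0.0022).

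The other 2 collagen-binding subunits were expressed at a few CPM and moved in opposite directions. ITGA10 held 4.66, 4.33 and 3.46 CPM in the controls and 2.43, 2.94 and 2.91 CPM after treatment, each treated library lying below each control (-0.59 ± 0.20, edgeR adjusted p = 0.032). ITGA11 held 1.10, 1.16 and 1.07 CPM in the controls and 1.54, 3.11 and 2.32 CPM in the treated libraries. The controls were close together, the treated libraries were spread widely, and all 3 were above them, a rise of 2.08-fold (1.06 ± 0.30, edgeR adjusted p = 0.011). These values rest on 60 to 112 counts per library for ITGA10 and 25 to 73 for ITGA11. The ITGA10 call was lost without any one of control replicates 1 and 2 and the 3 treated replicates (edgeR adjusted p 0.0691 to 0.138, over all alternatives 0.025 to 0.14). The ITGA11 call was lost without treated replicate 2, where the log2 fold change was 0.81 and the edgeR adjusted p 0.0819 (over all alternatives 0.0038 to 0.082).

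Of the laminin-binding subunits, ITGA6 fell and ITGA3 did not pass the test. ITGA6 (chr2:172427336-172506459, plus strand), which pairs with ITGB1 or ITGB4, stood at 928, 1015 and 1062 CPM in the controls and 788, 797 and 763 CPM after treatment. The treated libraries all lay below the controls, by 21.9% in the mean (-0.36 ± 0.06, edgeR adjusted p = 1.5e-04). ITGA3 stood at 646, 540.2 and 536 CPM and 559, 540.0 and 513 CPM, the groups overlapping (-0.09 ± 0.07, edgeR adjusted p = 0.32).

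Among the subunits of fibronectin and vitronectin receptors, which bind the peptide motif RGD, ITGA5 rose. ITGA5 (chr12:54395261-54419266, minus strand) stood at 172, 147 and 153 CPM in the controls and at 215, 192 and 189.9 CPM after treatment. Every treated library was above every control, the mean by 26.3% (0.34 ± 0.07, edgeR adjusted p = 9.4e-04). ITGAV, the alpha-v subunit, stood at 319, 325 and 346 CPM and 342, 363 and 342 CPM (0.08 ± 0.05, edgeR adjusted p = 0.29). Of the subunits known from leukocytes, ITGA4 was scarce and ITGAE was not. ITGA4, which binds VCAM1 and fibronectin, averaged 0.730 and 0.683 CPM, and ITGAE, which binds E-cadherin, averaged 11.4 and 13.02 CPM. Neither passed the test (edgeR adjusted p = 0.88 and 0.28).

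**Figure D2:**
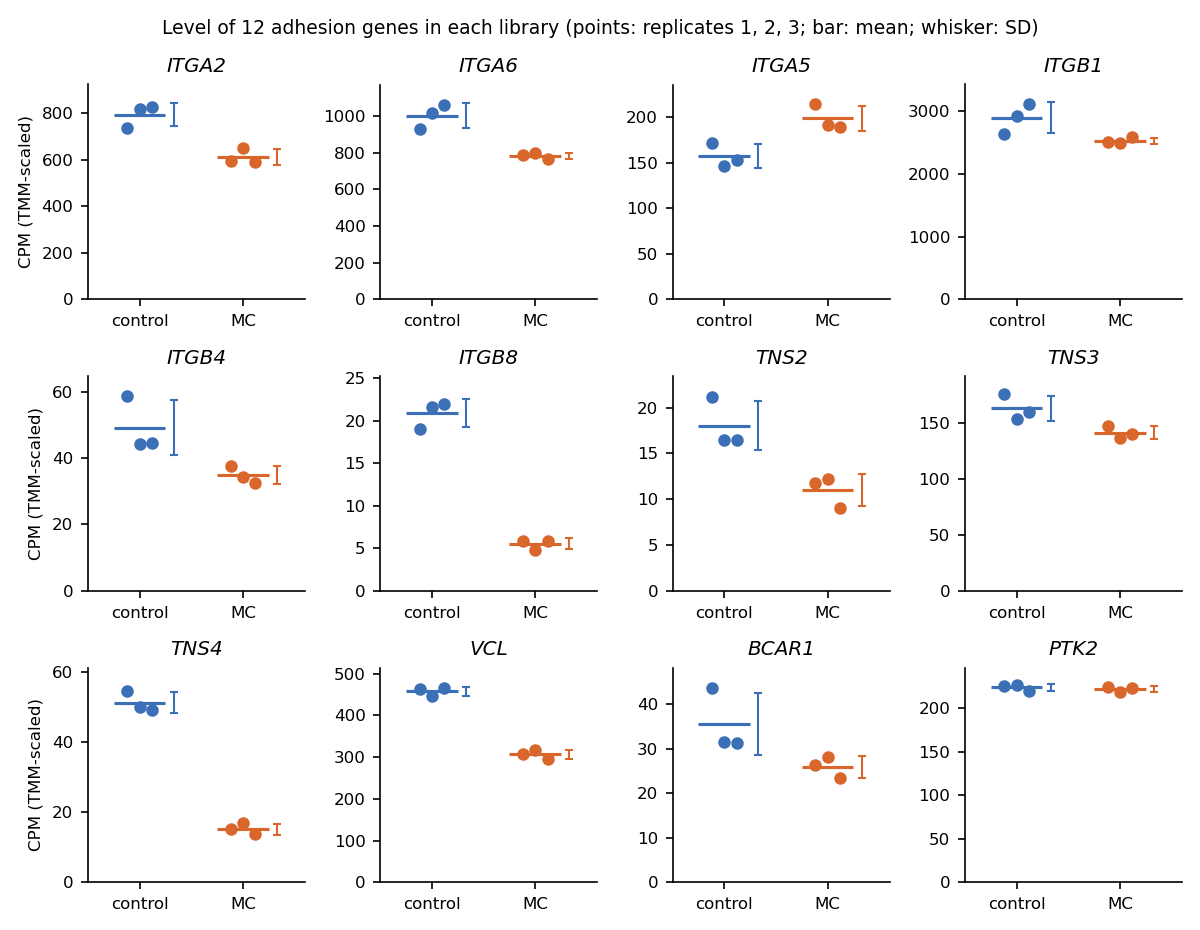
CPM of 12 adhesion genes in each library, control (blue) and mitocurcumin (MC, orange), with points for replicates 1, 2 and 3, a bar for the mean and a whisker for the SD; every axis starts at 0. ITGB8 and TNS4 show the widest gaps between groups relative to their levels, ITGA5 is the 1 gene shown that is higher after treatment, and the libraries of PTK2 overlap.

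ITGB8 had the largest estimated fall of the members, followed by TNS4, and the difference between them was not tested. It encodes the beta subunit that pairs with alpha-v and is known for activating latent TGF-beta. ITGB8 (Entrez 3696, chr7:20330900-20415754, plus strand) stood at 19.1, 21.7 and 22.01 CPM in control replicates 1, 2 and 3 and at 5.86, 4.77 and 5.92 CPM after treatment. The highest treated library lay below the lowest control by more than the spread within either group, and the mean was 3.78-fold lower (-1.92 ± 0.13, edgeR adjusted p = 7.2e-09). ITGB6, another beta subunit known for activating TGF-beta, was scarce. It stood at 2.20, 1.59 and 1.58 CPM and 1.46, 0.810 and 0.762 CPM, with no overlap, and missed the threshold (-0.83 ± 0.33, edgeR adjusted p = 0.063). Its call depended on the setting, with adjusted p from 0.025 to 0.22 over the alternatives, under 0.05 in limma voom and without treated replicate 1, for example.

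ITGB1, the common partner of most alpha subunits, had the highest level per kilobase of all members. It stood at 2632, 2929 and 3119 CPM in the controls and 2502, 2499 and 2581 CPM after treatment, 12.7% lower in the mean with no overlap (-0.20 ± 0.06, edgeR adjusted p = 0.018). The gap from control replicate 1 to the treated libraries was small, and the call was lost without control replicate 2 or 3 or treated replicate 1 or 2 (edgeR adjusted p 0.0801 to 0.148, over all alternatives 6.1e-06 to 0.15). ITGB4, the hemidesmosome subunit that pairs with ITGA6, fell as well. Its levels were 58.6, 44.4 and 44.6 CPM in the controls and 37.8, 34.4 and 32.6 CPM after treatment, control replicate 1 standing above the other controls (-0.49 ± 0.10, edgeR adjusted p = 0.0016).

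The remaining beta subunits did not pass the test. ITGB5, an alpha-v partner, averaged 108 and 106 CPM (-0.03 ± 0.08, edgeR adjusted p = 0.81). ITGB3, also an alpha-v partner, stood at 14.7, 15.9 and 15.02 CPM and 18.8, 16.8 and 17.1 CPM, higher with no overlap but short of the threshold (0.21 ± 0.10, edgeR adjusted p = 0.14). ITGB2, the leukocyte beta subunit, averaged 4.03 and 3.95 CPM (-0.04 ± 0.20, edgeR adjusted p = 0.92).

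Because an integrin needs 1 subunit of each kind, the levels were also compared within sets of partners, as CPM per kilobase of exon so that genes of different length share a scale. ITGB1 stood at 736 CPM per kilobase in the controls and 643 after treatment, above each alpha subunit. Of the summed level of its alpha partners, ITGA6 made up 35.6% ± 2.06 (SD, n = 3) in the controls and 31.6% ± 0.244 after treatment. The share of ITGA2 went from 20.9% ± 1.15 to 18.4% ± 0.727. The share of ITGA5, the fibronectin receptor's subunit, went from 7.35% ± 0.649 to 10.5% ± 0.655, and that of ITGAV from 9.50% ± 0.274 to 11.4% ± 0.327, the groups not overlapping in these 4 shares. ITGA3 held 24.4% ± 2.84 and 25.9% ± 0.604, with overlap. The log2 ratio of ITGA5 to ITGA2 shifted by 0.71. A share also moves when other genes of the sum change, and ITGAV itself was not called (0.08 ± 0.05, edgeR adjusted p = 0.29). These shares are descriptions of mRNA and were not tested.

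Among the beta partners of alpha-v other than ITGB1, ITGB5 dominated in both groups, with 80.00% ± 2.63 and 83.4% ± 0.847. The share of ITGB8 went from 7.45% ± 1.28 to 2.06% ± 0.160, and the log2 ratio of ITGB8 to ITGAV shifted by -2.01. ITGB3 held 11.3% ± 1.48 and 13.8% ± 0.599.

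**Figure D3:**
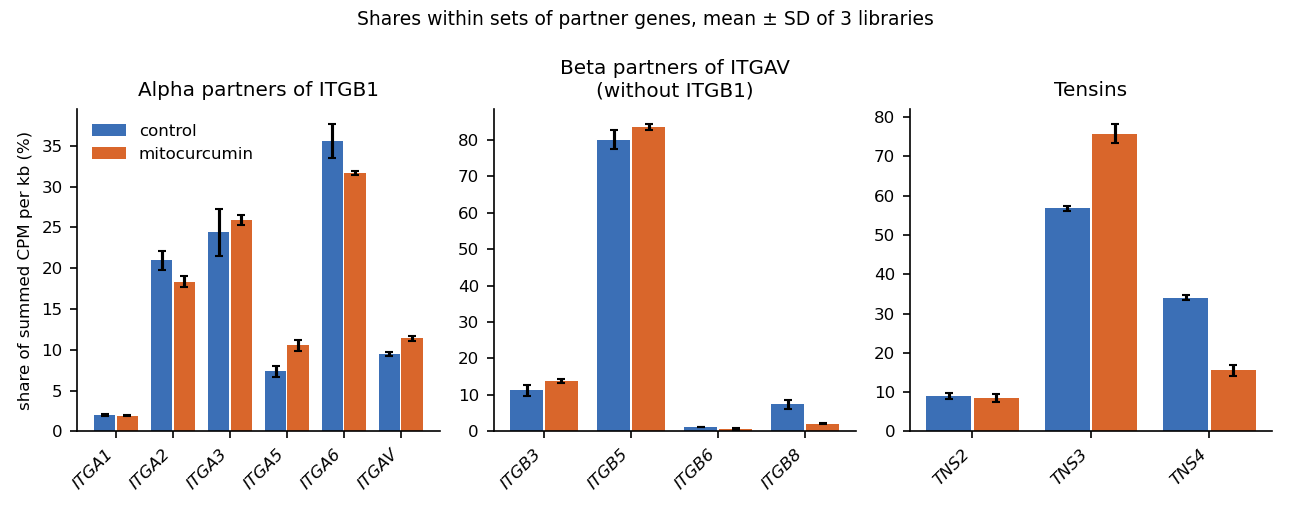
Share of the summed CPM per kilobase within 3 sets of partner genes, as mean and SD of 3 libraries per group; genes of very small share are left out of the left and right panels. Within the tensins TNS3 takes a larger share after mitocurcumin and TNS4 a smaller one, and ITGB8 shrinks among the beta partners of ITGAV.

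Of the 4 tensins, adaptors that bind beta subunit tails and link them to actin, 3 fell. TNS4, a short tensin that lacks the actin-binding part of the others, had the largest called fall of them. TNS4 (Entrez 84951, chr17:40475834-40501623, minus strand) stood at 54.7, 49.9 and 49.1 CPM in control replicates 1, 2 and 3 and at 15.1, 16.8 and 13.7 CPM after treatment, 3.37-fold lower with a wide gap between the groups (-1.75 ± 0.10, edgeR adjusted p = 5.8e-10). TNS2 stood at 21.1, 16.5 and 16.5 CPM and 11.7, 12.2 and 9.08 CPM, all treated libraries below all controls (-0.71 ± 0.14, edgeR adjusted p = 6.9e-04).

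TNS3, the tensin with the highest level per kilobase, fell by a smaller amount, from 164 ± 11.3 to 142 ± 5.47 CPM (SD, n = 3; -0.21 ± 0.06, edgeR adjusted p = 0.014). The TNS3 call was lost without treated replicate 2 or 3 (edgeR adjusted p 0.105 and 0.063, over all alternatives 0.0048 to 0.11). TNS1 held 6 to 26 counts per library and stood at 0.847, 1.01 and 0.683 CPM and 0.243, 0.469 and 0.520 CPM, lower with no overlap but not past the threshold (-1.03 ± 0.43, edgeR adjusted p = 0.081). As a share of the summed tensin level per kilobase, TNS3 went from 56.8% ± 0.719 to 75.8% ± 2.39 and TNS4 from 34.04% ± 0.701 to 15.6% ± 1.41, with no overlap. TNS2 held 8.98% ± 0.670 and 8.47% ± 1.09.

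VCL, which encodes vinculin, the protein that binds talin and actin at adhesions under load, had the highest level per kilobase of the adaptors in the controls (68.3 CPM per kilobase) and fell. VCL (Entrez 7414, chr10:73998116-74121363, plus strand) stood at 462, 445 and 465 CPM in the controls and 307, 318 and 296 CPM after treatment. Both groups were tight, and the mean was 32.9% lower (-0.58 ± 0.05, edgeR adjusted p = 3.1e-07). TLN1, which encodes the main talin, stood at 541, 487 and 493 CPM and 509, 485 and 476 CPM, with overlap (-0.05 ± 0.06, edgeR adjusted p = 0.54). Within the libraries, the log2 ratio of VCL to TLN1 went from -0.15 ± 0.07 to -0.68 ± 0.06 (SD, n = 3).

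BCAR1 encodes p130Cas, a docking protein phosphorylated by FAK and SRC. It stood at 43.6, 31.6 and 31.4 CPM in the controls, replicate 1 above the others, and at 26.2, 28.2 and 23.3 CPM after treatment, lower with no overlap (-0.45 ± 0.12, edgeR adjusted p = 0.0088). Without treated replicate 3 its log2 fold change was -0.38 and the edgeR adjusted p 0.0598, against 0.0005 to 0.06 over all alternatives. PTK2, which encodes FAK, stood at 225, 226 and 219 CPM and 224, 218 and 222 CPM, the groups overlapping within a few CPM (-0.01 ± 0.05, edgeR adjusted p = 0.88). SRC and the FAK relative PTK2B did not pass the test either, at 0.07 ± 0.09 and 0.07 ± 0.13 on the log2 scale (edgeR adjusted p = 0.59 and 0.74).

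PXN, which encodes the scaffold paxillin, stood at 309, 261 and 263 CPM in the controls and 318, 304 and 303 CPM after treatment. The treated libraries were close together and control replicate 1 lay within their range, and PXN missed the threshold (0.15 ± 0.06, edgeR adjusted p = 0.084). Without control replicate 1, PXN was higher by 0.23 on the log2 scale with an edgeR adjusted p of 0.000174, and over all alternatives its adjusted p ran from 0.00017 to 0.27. ZYX, which encodes zyxin, averaged 59.6 and 52.1 CPM and missed it too (-0.19 ± 0.08, edgeR adjusted p = 0.085).

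None of the talin, kindlin, ILK, PINCH and parvin genes among the members passed edgeR's test, DESeq2 or limma voom. The kindlin FERMT3, which is not a member, is given below with the related lists. At an unadjusted p under 0.05 edgeR gave 1, TLN2, the second talin, at 21.3, 20.3 and 20.3 CPM and 18.4, 17.01 and 16.9 CPM (-0.24 ± 0.10, adjusted p = 0.065). The kindlins FERMT1 and FERMT2 averaged 52.2 and 166 CPM in the controls and 48.2 and 159.9 CPM after treatment. FERMT1 was lower with no overlap (-0.11 ± 0.07, edgeR adjusted p = 0.24), and the groups of FERMT2 overlapped. ILK differed by -0.05 ± 0.08, the PINCH gene LIMS1 by 0.08 ± 0.06 and the parvin gene PARVA by 0.01 ± 0.05 on the log2 scale (SE, n = 3 per group).

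Promoters were searched for short motifs in the 250 bases before each start site listed by RefSeq (GRCh38.p14), on both strands, and 25 of the 36 genes matched with 46 promoters. The 4 windows printed belong to ITGB8, VCL and BCAR1, which fell, and ITGA5, which rose. They run 5′ to 3′ toward the gene, and capitals mark a match to the TEAD motif GGAATG, the AP-1 motif TGANTCA, the C/EBP-ATF motif TGATGNAA or the CArG box. The ITGB8 window is chr7:20330650-20330899 on the plus strand, the VCL window chr10:73997866-73998115 on the plus strand, the ITGA5 window chr12:54419267-54419516 on the minus strand and the BCAR1 window, at the outermost listed start, chr16:75268008-75268257 on the minus strand.
ITGB8: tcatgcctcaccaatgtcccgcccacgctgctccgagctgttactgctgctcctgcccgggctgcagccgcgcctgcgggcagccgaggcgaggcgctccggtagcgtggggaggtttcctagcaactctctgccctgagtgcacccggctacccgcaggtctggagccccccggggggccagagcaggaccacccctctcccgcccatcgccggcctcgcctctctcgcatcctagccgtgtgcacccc
VCL: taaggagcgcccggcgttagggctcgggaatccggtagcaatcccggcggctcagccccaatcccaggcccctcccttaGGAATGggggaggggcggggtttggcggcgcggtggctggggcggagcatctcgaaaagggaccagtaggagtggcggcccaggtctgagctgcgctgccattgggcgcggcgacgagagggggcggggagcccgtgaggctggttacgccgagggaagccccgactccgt
ITGA5: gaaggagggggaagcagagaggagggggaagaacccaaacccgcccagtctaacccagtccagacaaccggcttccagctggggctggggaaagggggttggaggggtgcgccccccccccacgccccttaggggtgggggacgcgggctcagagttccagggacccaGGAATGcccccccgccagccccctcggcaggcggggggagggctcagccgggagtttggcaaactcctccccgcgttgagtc
BCAR1: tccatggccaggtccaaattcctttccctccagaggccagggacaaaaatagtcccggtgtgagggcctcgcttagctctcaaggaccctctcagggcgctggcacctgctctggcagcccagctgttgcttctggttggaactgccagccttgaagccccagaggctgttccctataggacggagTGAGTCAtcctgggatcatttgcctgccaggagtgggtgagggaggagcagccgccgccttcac

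The TEAD letters stood at position -171 of VCL and -82 of ITGA5, counting the last base before the start as -1, so they were in a gene that fell and in a gene that rose. They were found in 7 of the 46 member promoters (15.2%), of ITGA10, ITGA5, ITGB1, PXN, TNS1 and VCL, against 11.9% of all 35116 promoters. The AP-1 letters stood at -64 of BCAR1 and were in 2 of 46 (4.35%, against 6.57% of all). The ITGB8 window held none of these 4 motifs. The GC box GGGCGG, left in lower case, was in 23 of 46 (50.0%, against 42.6% of all). A match describes letters and is not a bound site.

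Control replicate 1 was often the extreme control. It was the highest of the 3 controls in 20 of 35 members and the lowest in 10, where it was highest in 38.7% and lowest in 39.1% of all genes tested. Among the treated libraries, replicate 3 was the lowest in 21 of 35, against 34.5% of all genes. Of the 14 calls, 9 held in all 15 alternatives, those of ITGA1, ITGA2, ITGA5, ITGA6, ITGB4, ITGB8, TNS2, TNS4 and VCL, leaving out control replicate 1 or treated replicate 3 included.

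**Figure D4:**
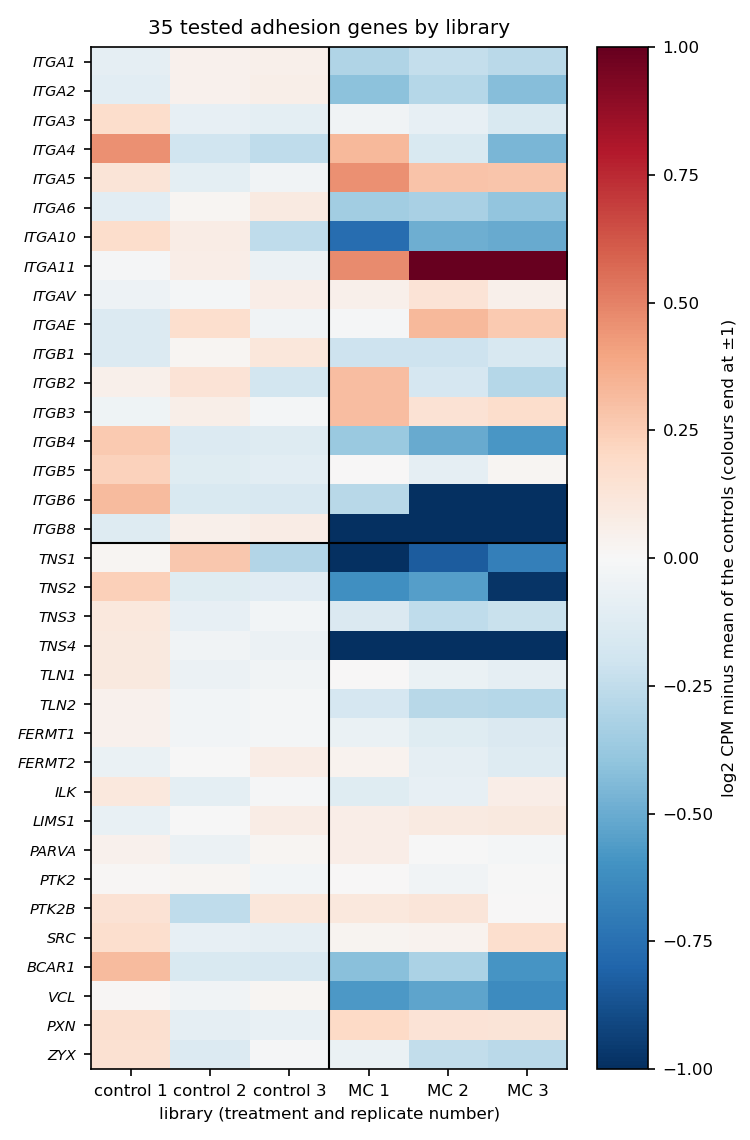
Log2 CPM of each tested gene in each library minus the mean of the 3 controls, from blue (lower) to red (higher), with colours ending at 1 in either direction; MC is mitocurcumin. TNS4 and ITGB8 are deep blue in all 3 treated libraries, and control replicate 1 is tinted red for genes such as ITGB4 and BCAR1.

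Genes that work with the members were read from gene lists. For comparison with the counts below, 14.7% of all genes tested rose and 17.8% fell. Among genes with a mean of at least 10 CPM, 19.3% rose and 25.5% fell. Of 54 other tested focal adhesion adaptors, 11 rose (20.4%) and 15 fell (27.8%), near those last shares. Their median log2 fold change was -0.01, and 9 fell without treated replicate 2 or without treated replicate 3. FERMT3, the blood-cell kindlin, rose from 1.07 to 3.42 CPM (1.67 ± 0.27), and FYN, a kinase related to SRC, rose from 44.3 to 84.2 CPM (0.93 ± 0.06). KANK2, a talin-binding protein, fell from 114 to 75.1 CPM (-0.60 ± 0.06), and FLNC, an actin cross-linker, fell from 169 to 118 CPM (-0.51 ± 0.07). Of 10 genes for integrin inhibitors and the cortical complex around adhesions, 2 rose and 1 fell, PHLDB2 and PPFIBP1 rising from 137 to 192 CPM (0.49 ± 0.05) and from 139.7 to 163 CPM (0.23 ± 0.06) and PHLDB1 falling from 31.9 to 23.8 CPM (-0.42 ± 0.09). The SE stands after each log2 fold change here and below.

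Of 31 tested integrin ligands of the matrix and the cell surface, 16 fell (51.6%) and 2 rose (6.45%). Of all genes tested, 17.8% and 14.7% did so, and of those with a mean of at least 10 CPM 25.5% and 19.3%. The median of the ligands was -0.19, and 4 of them rose without control replicate 1. The collagen gene COL1A2 fell from 13.02 to 5.90 CPM (-1.14 ± 0.15) and the laminin gene LAMA4 from 5.45 to 2.74 CPM (-0.99 ± 0.20). CCN2, a matricellular ligand, fell from 266 to 135 CPM (-0.98 ± 0.05), and FN1, which encodes fibronectin, from 2037 to 1732 CPM (-0.23 ± 0.06). The cell-surface ligands ICAM1 and VCAM1 were the 2 that rose, from 152 to 239.5 CPM (0.65 ± 0.06) and from 23.9 to 34.4 CPM (0.53 ± 0.10). COL1A2 is also the 1 fibroblast marker called lower, so the lower summed level of those markers includes its fall and is not a separate observation.

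Of 8 tested genes for the TGF-beta isoforms and their carriers, 5 fell (62.5%) and 0 rose, with a median of -0.41. Of all genes tested, 17.8% fell and 14.7% rose, and of those with a mean of at least 10 CPM 25.5% and 19.3%. Without treated replicate 1, 2 or 3 in turn, 3, 2 and 3 of the TGF-beta and carrier genes fell. At an unadjusted p under 0.05 edgeR gave 0 higher, and DESeq2 called 4 lower and 0 higher. TGFB2 fell from 245 to 154 CPM (-0.67 ± 0.05) and TGFB3 from 4.13 to 2.80 CPM (-0.56 ± 0.20). Of 22 tetraspanins and other membrane partners 3 rose (13.6%) and 8 fell (36.4%). SLC3A2, the CD98 heavy chain, which binds beta subunit tails and carries amino acid transporters, rose from 54.6 to 183 CPM (1.75 ± 0.08). The collagen receptor DDR2 rose from 3.78 to 5.93 CPM (0.65 ± 0.21), and NRP2 and SDC3 fell from 54.7 to 32.6 CPM (-0.75 ± 0.08) and from 62.3 to 38.2 CPM (-0.71 ± 0.07). Of the 4 tested hemidesmosome partners of ITGA6 and ITGB4, 2 fell, DST from 1454 to 1134 CPM (-0.36 ± 0.07) and PLEC from 649 to 548 CPM (-0.24 ± 0.08). Without control replicate 1, 1 of these partners fell and 1 rose, and without any one treated replicate 1 fell.

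**Figure D5:**
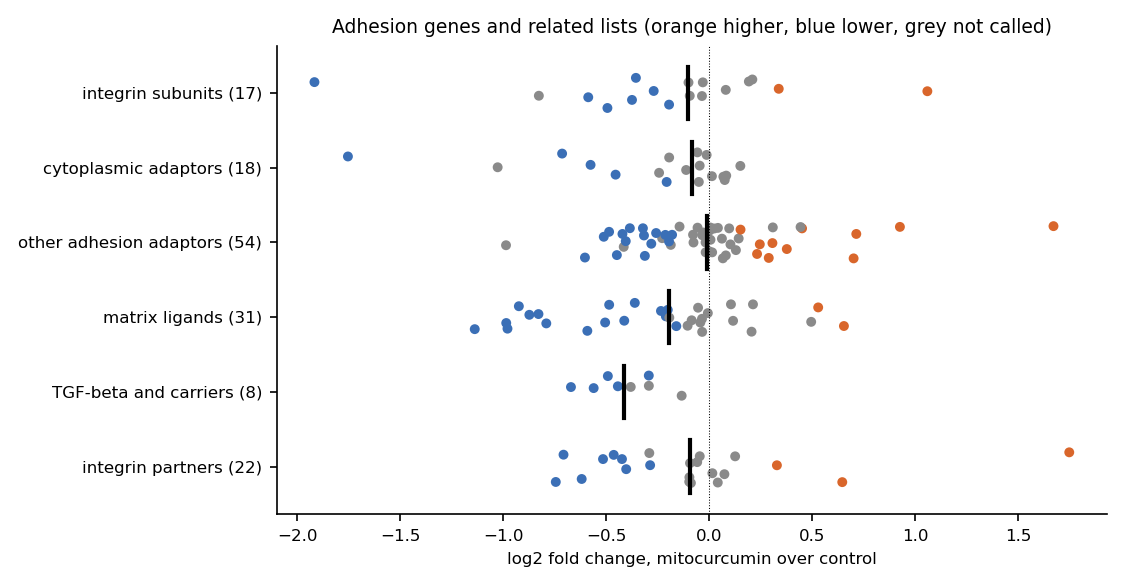
Log2 fold change, mitocurcumin over control, of each tested gene in the member groups and in 4 related lists, with the number tested in brackets and a black bar at the median. The matrix ligands, which include cell-surface ligands, and the TGF-beta genes have medians of -0.19 and -0.41. Single genes such as SLC3A2 and FERMT3 lie far to the right.

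Some members overlap other genes, and the strand setting of the counting is not given in the sources used here, so reads in the overlap cannot be assigned with certainty. PELO overlaps ITGA1 by 16129 bases on the same strand and rose from 46.9 to 58.4 CPM (0.32 ± 0.07), opposite to ITGA1. AP3M1 overlaps VCL by 1109 bases on the opposite strand and rose (0.21 ± 0.05), opposite to VCL. SPRYD3 overlaps TNS2 by 64 bases on the opposite strand and fell (-0.54 ± 0.12), in the same direction as TNS2. HASPIN overlaps ITGAE by 2797 bases on the opposite strand and fell from 28.7 to 19.6 CPM (-0.55 ± 0.10). TAF10 overlaps ILK by 4577 bases on the opposite strand. It averaged 133 and 134 CPM in control and treated cells (0.003 ± 0.06), against 56.0 and 54.2 CPM for ILK. The antisense gene ITGB8-AS1 averaged 0.137 CPM in the controls and 0.082 CPM after treatment. The pseudogene copies ITGB1P1, BCAR1P1, BCAR1P2 and ZYXP1 were listed at 0 in every library.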

How the data were processed

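Libraries were stranded polyA libraries, per the labels' protocols, 3 per group. The authors deposited raw values per gene, which are estimated counts since only 20.4% to 21.7% of those above 0 were whole (within 1e-06), and log2 values. In each library the deposited log2 values above 0 differ from the log2 raw values by a constant, as checked in 14681 to 15340 genes. Genes with few counts were not checked. The gene model is RefSeq per the file headers, and the build is GRCh38 per the submitters' processing notes. Aligner and counter are not given in the sources used here. Treated replicate 2 has a column heading whose sample number is out of sequence.

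Estimated counts were rounded, although a test of whole counts had been planned. Genes passing filterByExpr (minimum count 10, total 15), 16481 of 58656, were scaled by TMM and tested with edgeR 4.0.16 in R 4.3.3 (robust quasi-likelihood, common biological coefficient of variation 8.43%), with Benjamini-Hochberg adjustment over all of them. The script was tested on simulated data. Alternatives used DESeq2 1.42.0, limma 3.58.1, other scalings and filters, a replicate block and each library left out. Replicates differed by more than sampling noise (chi-square per gene 5.36 to 19.2), so each counted as 1. Exon lengths for CPM per kilobase came from GENCODE. Precision is limited by 3 libraries per group.

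The members and all gene lists were chosen with earlier results of these data known. Values by library are given for members with an adjusted p under 0.05 and an absolute log2 fold change of at least 0.4, for ITGB1, PTK2, VCL, PXN and TLN1, and for others where a sentence needed them. From each related list, the 2 called genes with the largest change in each direction at a mean of at least 1 CPM are named, with FN1 and CCN2. The result of 1 further list is not reported here. The remaining lists gave 2 tested integrin subunits outside the members, 0 called by edgeR (0 at an unadjusted p under 0.05, 0 by DESeq2 and limma voom) and 1 of 5 platelet markers higher.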

Additional observations from a re-analysis of the deposited data

How the results depend on the processing

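No called member changed direction under any of 15 alternatives, and 9 of 14 calls held in all; the calls lost for ITGA10, ITGA11, ITGB1, TNS3 and BCAR1 are given beside those genes. With each library left out in turn, members called higher numbered 1 to 3 and lower 9 to 11, subunits higher 1 to 2 and lower 5 to 6, and adaptors higher 0 to 1 and lower 3 to 6. The lowest values for members and subunits called higher (1 each) came without treated replicate 2, which loses ITGA11, and the 3 falling adaptors came without treated replicate 3. The median of the subunits ran from -0.22 (without treated replicate 1) to -0.016 (without control replicate 1), and that of the adaptors was -0.036 with the filter of 1 CPM, which tests fewer genes. At an adjusted p under 0.01, 1 member, a subunit, was called higher, and 1636 of all genes were higher and 2018 lower. Upper-quartile scaling, a filter of 1 CPM in 3 libraries and the replicate block each called 1 adaptor higher, PXN, where the cause was not tested.

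The fit with a replicate block called 3 members higher and 14 lower, adding PXN, ITGB6 and ZYX. Deviations from the group means correlated across genes by 0.10, 0.02 and -0.01 for the same numbers. For different numbers the correlations ran from -0.11 to 0.09. With 3 libraries per group these values cannot show whether the numbers pair the libraries. Among members that were not called, the sign reversed for PTK2 under upper-quartile scaling (0.015) and the 1 CPM filter (0.0098). With a library left out the log2 fold change ran from -0.32 to 0.16 for ITGA4, from -0.22 to 0.085 for ITGB2, from -0.087 to 0.092 for ITGB5, from -0.11 to 0.0098 for ILK, from -0.011 to 0.035 for PARVA, from -0.015 to 0.0095 for PTK2, from -0.045 to 0.14 for PTK2B. Scaling moved the median of all genes by less than 0.1. Members with few counts (ITGA4, ITGA11, ITGB6, TNS1) are limited by depth.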
